A study of Mus musculus with 8 samples.

Results

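The tumour suppressor p53 (gene symbol Trp53 in the mouse) and 9 genes tied to it were followed across hematopoietic stem cells (HSCs) sorted by size. The 10 genes were taken from a fixed list of symbols: Trp53, its inhibitors Mdm2 and Mdm4, and the targets Ccng1, Phlda3, Eda2r, Zmat3, Sesn1, Aen and Trp53inp1. All 10 were found among the 50686 gene IDs of the deposited tables, and all 10 were among the 16066 genes with enough reads to be tested. The libraries were made from marrow HSCs of C57BL/6J mice; the labels give no treatment, age or sex for these animals. After lineage depletion, antibodies to CD117, Sca-1, CD150 and CD48 were used for the sort, and each library used 10000 cells gated in G0/1. By forward scatter, Small holds the lowest 10% of cells, Large the highest 10%, and Medium those within 10% of the mean; All was not separated by size. Each of these 4 groups has 2 libraries, called here by group and number (Small 1, Small 2) and always listed in that order, and nothing in the labels says that the numbers stand for separate animals. The p-values therefore measure only the spread between these libraries, which may be technical.

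p53 is a transcription factor that is kept scarce by constant degradation and accumulates after DNA damage and other stresses. Mdm2 is the ubiquitin ligase that marks p53 for degradation and is itself a p53 target, which closes a negative feedback loop; Mdm4 is a related protein that binds and restrains p53 without being an efficient ligase on its own. Control of p53 acts largely on the protein, so its mRNA does not report its activity, and the mRNAs of its targets are the usual readout. In HSCs p53 is known to hold cells in quiescence and to respond to irradiation. The genes lie on chromosomes 11 (Trp53, chr11:69580359-69591873, and Ccng1, chr11:40748552-40755311), 10 (Mdm2, chr10:117688875-117710758, and Sesn1, chr10:41809935-41908424), 1 (Mdm4, chr1:132959484-133030561, and Phlda3, chr1:135766119-135769136), X (Eda2r, chrX:97333840-97377216), 3 (Zmat3, chr3:32334792-32366014), 7 (Aen, chr7:78895854-78911209) and 4 (Trp53inp1, chr4:11156431-11174379) in GENCODE M21 on GRCm38, the assembly also called mm10. In the study these libraries belong to, DNA damage was among the conditions that enlarged HSCs, and the comparison of size gates asks whether the largest unperturbed HSCs differ in the mRNAs of this pathway.

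The libraries hold 13698362 to 16838448 counts. The first principal component (39.5% of the variance) placed the 4 libraries numbered 1 at -81.2 to -31.1 and the 4 numbered 2 at 0.984 to 106, so differences between the size gates are also given within each number. Defining HSC markers were present in all libraries: the summed expression of 12 HSC and sort-antigen genes was 1630 and 3260 CPM (counts scaled to library size) in the Small pair, 1650 and 2580 in the Medium pair, 855 and 1890 in the Large pair, and 1530 and 3520 in the All pair. Myeloid genes were abundant too. The sum of 15 granulocyte and monocyte genes was 46000 and 12900 CPM in the Small pair, 25400 and 8640 in the Medium pair, 46900 and 23700 in the Large pair, and 58200 and 3700 in the All pair, with all 15 detected in every library. Large 2 had the highest B cell sum, 4110 CPM, and the remaining libraries held 220 to 1220. The erythroid sum ran from 1930 to 4770 CPM, the T and NK cell sum from 64.1 to 975 (of which Nkg7 alone gave 53.1 to 970, with Cd3e at most 1.39), and the macrophage sum from 71.3 to 201. The part of these other cells in the values below was not tested. In such bulk samples, fewer cells of a type and less RNA per cell cannot be told apart.

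On TPM values taken back from the authors' log2(TPM + 1), which are scaled to transcript length and library size, Trp53 was the most abundant of the 10, with 140 to 228 TPM and a mean of 183 over the 8 libraries. Its range lay just above that of the next gene, Sesn1, an inhibitor of mTORC1 signalling and an antioxidant protein, with 25.4 to 140 TPM, and Trp53 was above Sesn1 in 8 of 8 libraries. Sesn1 (mean 76.3 TPM), Mdm2 (54.1), Aen (46.1) and Mdm4 (45.6) followed with overlapping ranges. Sesn1 exceeded Mdm2 in 4 of 8 libraries, Mdm2 exceeded Aen in 6 of 8, and Aen exceeded Mdm4 in 4 of 8, so the order of these neighbours was not settled by their spread. Mdm4 was above Ccng1 (mean 36.6 TPM) in 8 of 8 libraries, although their ranges over all libraries overlapped. Ccng1, which encodes the atypical cyclin G1, was in turn clear of Trp53inp1 (mean 14.7 TPM). Phlda3, Zmat3 and Eda2r were scarce, with means of 2.84, 0.445 and 0.23 TPM. Of the targets, Sesn1, Aen, Ccng1 and Trp53inp1 were thus moderately abundant, and the other 3 were rare mRNAs.

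The DNA that p53 binds is made of decameric half-sites, and functional elements usually pair a couple of them. The promoter windows that RefSeq gives for GRCm38.p6, from 250 bases before to 50 bases after each annotated start, were searched for a perfect match to the p53 half-site consensus, which reads the same on both strands. Of the 10 genes, 8 had an entry (11 windows in all); Zmat3 and Trp53inp1 had none. A half-site lay in a window of 5 of these 8 genes, against 9.55% of all 27025 genes in the table, and a pair of half-sites at most 13 bases apart lay in 0 of the 8, against 0.074% of all genes. The 5 matches are shown 5′ to 3′ on the gene's own strand, with the half-site in capitals. Up to 45 bases are given on either side, and fewer where an annotated exon lies next to the match. Whether a match goes with the level of an mRNA was not tested. For Aen the match lies in an annotated exon of the gene and only 30 bases are given. It stands 10 bases after one RefSeq start and 121 bases before another.

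Trp53, chr11:69580256-69580338, plus strand, half-site 75 bases before the start: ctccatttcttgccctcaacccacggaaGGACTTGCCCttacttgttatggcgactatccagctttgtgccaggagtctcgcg
Mdm2, chr10:117710890-117710989, minus strand, half-site 186 bases before the start: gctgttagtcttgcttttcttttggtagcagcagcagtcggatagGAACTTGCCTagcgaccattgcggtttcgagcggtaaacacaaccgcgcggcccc
Ccng1, chr11:40755417-40755516, minus strand, half-site 185 bases before the start: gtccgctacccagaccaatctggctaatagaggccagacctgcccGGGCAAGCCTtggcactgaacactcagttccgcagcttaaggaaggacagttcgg
Sesn1, chr10:41887221-41887320, plus strand, half-site 173 bases before the downstream of the gene's RefSeq starts: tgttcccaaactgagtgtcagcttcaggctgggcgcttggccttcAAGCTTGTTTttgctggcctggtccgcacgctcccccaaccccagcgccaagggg
Aen, chr7:78895927-78895956, plus strand: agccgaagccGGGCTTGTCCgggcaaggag

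A match is a run of letters and not evidence of binding. No match in a window of this length says nothing about imperfect elements within it or about elements elsewhere. The response element described for Mdm2, for example, lies in its first intron. The windows of Mdm4, Phlda3 and Eda2r held no half-site, nor did the upstream of the Sesn1 windows.

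**Figure D1:**
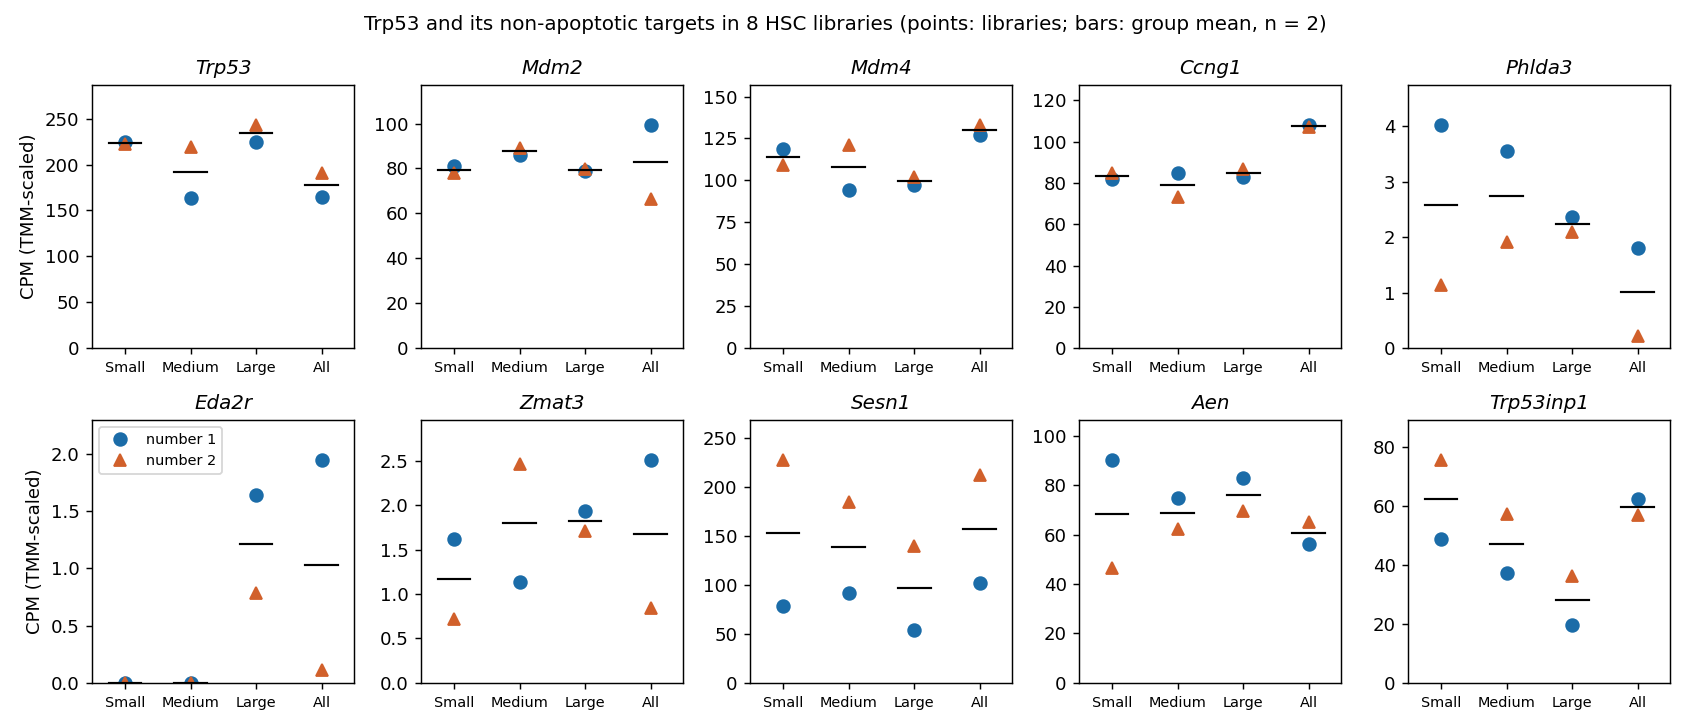
TMM-scaled CPM (y axis, linear and starting at 0, with its own scale in each panel) of the 10 genes in Small, Medium, Large and All HSCs (x axis); circles are libraries numbered 1, triangles libraries numbered 2, and black bars group means of 2 libraries. Trp53, Mdm2 and Ccng1 lie at similar heights in Small and Large, Trp53inp1 and Sesn1 are lowest in Large within each number, and Eda2r is at 0 in the 4 Small and Medium libraries.

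Trp53 mRNA took up a similar share of the reads in the smallest and the largest HSCs. On CPM scaled by TMM (a correction for differences in library composition), it had 225 and 222 CPM in the Small pair, 164 and 219 in the Medium pair, 225 and 243 in the Large pair, and 165 and 191 in the All pair. Medium 1 and All 1 were the low libraries, and Small 1 and Large 1 were equal to 3 digits. The means were 234 ± 12.7 CPM in Large and 223 ± 1.99 in Small (SD, n = 2), a fitted log2 fold change of 0.07 (SE 0.21; edgeR adjusted p = 0.981). Against Medium (191 ± 38.3 CPM) Large was higher by 0.29 on the log2 scale (SE 0.21; adjusted p = 0.989), with 0.46 within number 1 and 0.16 within number 2; the value was 0.10 without Medium 1 and 0.47 without Medium 2. Against All (178 ± 18.1 CPM) the difference was 0.40 (SE 0.21; adjusted p = 0.885). None of these passed the threshold of an adjusted p of 0.05. The SE of 0.21 allows a difference of either sign between Large and Small. CPM values are shares of a library's reads, so here and below they do not give mRNA per cell.

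The mRNAs of the p53 inhibitors differed little between the gates. Mdm2 had 80.9 and 78.0 CPM in the Small pair, 86.1 and 89.0 in the Medium pair, 78.7 and 79.8 in the Large pair, and 99.3 and 66.6 in the All pair. The Small and Large values overlapped, both Medium libraries lay slightly above them, and the All libraries spanned the whole range. The Large and Small means were 79.3 ± 0.801 and 79.5 ± 2.02 CPM (log2 0.00, SE 0.23; adjusted p = 1 by edgeR). The SE allows a difference of either sign, so this does not show that the levels were equal.

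Mdm4 had 119 and 109 CPM in the Small pair, 94.5 and 121 in the Medium pair, 97.1 and 102 in the Large pair, and 127 and 133 in the All pair. The Large pair stood below the Small pair without overlap, and both All libraries lay above all 6 others. The Large mean of 99.4 ± 3.15 CPM was 0.20 below the Small mean of 114 ± 7.18 on the fitted log2 scale (-0.20, SE 0.20; adjusted p = 0.975), with -0.30 within number 1 and -0.11 within number 2. Mdm2 and Mdm4 bind the same region of p53, and neither mRNA passed the test between any gates.

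Ccng1 is induced by p53 and recruits a phosphatase to Mdm2. It had 81.7 and 84.8 CPM in the Small pair, 84.7 and 73.3 in the Medium pair, 83.0 and 86.8 in the Large pair, and 108 and 107 in the All pair. The 6 gated libraries overlapped, and the All pair stood above them. Large and Small differed by a log2 fold change of 0.03 (SE 0.18; adjusted p = 0.993), with 0.02 and 0.03 within numbers 1 and 2. Each gate was below All, by -0.37 in Small (SE 0.18; adjusted p = 1), -0.45 in Medium (SE 0.18; adjusted p = 1) and -0.35 in Large (SE 0.18; adjusted p = 0.885). These 3 comparisons share the All libraries and are not separate pieces of evidence.

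Trp53inp1 showed the widest difference among the abundant members. It encodes a stress-induced protein that promotes p53 phosphorylation and takes part in autophagy. It had 48.7 and 75.5 CPM in the Small pair, 37.1 and 57.0 in the Medium pair, 19.7 and 36.3 in the Large pair, and 62.1 and 56.9 in the All pair. Both Large libraries lay below all 6 others. The Large mean was 28.0 ± 11.8 CPM and the Small mean 62.1 ± 18.9, a log2 fold change of -1.15 (SE 0.39; adjusted p = 0.975), with -1.30 within number 1 and -1.05 within number 2. Large was also below Medium (47.1 ± 14.1 CPM; -0.75, SE 0.39; adjusted p = 0.989), by -0.91 and -0.65 within the numbers, and below All (59.5 ± 3.64 CPM; -1.09, SE 0.39; adjusted p = 0.885), by -1.65 and -0.65. Medium was below Small by -0.39 and -0.40 within the numbers. The order Small, Medium, Large thus held in each number, but no step passed the test. With the replicate number added to the fit as a block, Large against Small was -1.17 (edgeR adjusted p = 0.0822), again short of the threshold. Trp53inp1 was then among 2791 genes at an unadjusted p under 0.05. The shares of all genes with this order, or with both Large libraries below all 6 others, were not counted. Without Small 2 or without Large 1 the Large against Small value was -0.80, and without Large 2 it was -1.66. Against Medium it was -0.40 without Large 1, -0.45 without Medium 2 and -1.26 without Large 2. Medium against Small was -0.05 without Small 2, -0.12 without Medium 1, -0.68 without Small 1 and -0.72 without Medium 2.

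Sesn1 was also lowest in Large within each number, on top of a wider gap between the numbers. It had 78.6 and 228 CPM in the Small pair, 92.1 and 185 in the Medium pair, 53.7 and 140 in the Large pair, and 102 and 212 in the All pair. Every library numbered 2 lay above every library numbered 1, a pattern found in 1 of the 10 genes and in 11.6% of all genes tested. The Large and Small means were 96.8 ± 60.9 and 153 ± 106 CPM (log2 -0.66, SE 0.69; adjusted p = 0.975), and the groups overlapped. Within number 1 Large was lower than Small by 0.55 (-0.55), and within number 2 the difference was -0.71. Without Small 2, which sets both Large libraries against Small 1 alone, the value was 0.30. With all libraries and the replicate number as a block in the fit, it was -0.63 (edgeR adjusted p = 0.106). Sesn1 was then among 2791 genes at an unadjusted p under 0.05. Large was the lowest of the 4 libraries within both numbers for 2 of the 10 genes, Sesn1 and Trp53inp1, and for 13% of all genes tested, so a share of this size is near the background.

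Aen encodes a nuclease that p53 induces and that was named for its role in apoptosis. It had 90.2 and 46.5 CPM in the Small pair, 74.7 and 62.4 in the Medium pair, 82.8 and 69.4 in the Large pair, and 56.0 and 65.0 in the All pair. Small 1 was the highest and Small 2 the lowest of all libraries, so the Small pair enclosed the others. The Large mean was 76.1 ± 9.52 CPM and the Small mean 68.3 ± 30.9 (log2 0.16, SE 0.33; adjusted p = 0.975), with -0.12 within number 1 and 0.58 within number 2.

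The scarce members rest on few reads, and their values carry wide errors. Phlda3, a competitor of Akt for membrane lipids, had 62 and 16 counts in the Small pair, 57 and 31 in the Medium pair, 33 and 32 in the Large pair, and 26 and 4 in the All pair. The groups overlapped between all 3 gates (Large against Small log2 -0.21, SE 1.07; adjusted p = 0.991), and the sign differed between number 1 (-0.74) and number 2 (0.81). Zmat3, an RNA-binding protein that acts on splicing and mRNA stability, had 25 and 10 counts in the Small pair, 18 and 40 in the Medium pair, 27 and 26 in the Large pair, and 36 and 15 in the All pair. Both Large libraries lay above both Small libraries in CPM (1.93 and 1.71 against 1.62 and 0.714), with a log2 fold change of 0.63 (SE 0.90; adjusted p = 0.975).

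Eda2r, the receptor of ectodysplasin A2, was the one member absent from whole groups. It had 0 counts in each of the 4 Small and Medium libraries, 23 and 12 counts in the Large pair, and 28 and 2 in the All pair. The Large mean of 1.22 CPM was 5.95 times a floor of 3 counts per library in Small (0.204 CPM) and 6.53 times that floor in Medium (0.186 CPM). The Large libraries themselves had 1.64 and 0.789 CPM. Their spread is not in these ratios, so the ratios are not lower bounds. The difference did not pass edgeR's test in either comparison (adjusted p = 0.975 and 0.989). Eda2r passed the filter on low counts through the Large and All libraries alone, so a difference from Small and Medium was built into its being tested. PCR copies cannot be told from separate molecules here, so the floor covers counting error alone.

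Between Large and Small, 0 of the 10 genes passed edgeR's test, as did 0 of all 16066 genes (0%). The smallest adjusted p over all genes was 0.975 here, 0.989 for Large against Medium and 0.885 for Large against All. Genes with unlike unadjusted p therefore share these values. Trp53inp1 (edgeR unadjusted p = 0.023) and Aen (0.65) both have an adjusted p of 0.975 between Large and Small. Trp53inp1 was among the 506 of 16066 genes at an unadjusted p under 0.05. Eda2r was too, but the filter built in its difference, so its p is no evidence. The other tools called 12 genes (DESeq2), 0 (limma-voom) and 1 (limma-trend, run on log2(TPM + 1)), with none of the 10 among them. Large was higher within both numbers for 4 genes (Trp53, Ccng1, Zmat3 and Eda2r), against 32.9% of all genes, and lower within both for 3 (Mdm4, Sesn1 and Trp53inp1), against 31.2%. Of these, Trp53 differed by only 0.00 within number 1 and 0.13 within number 2, and the direction of Eda2r was fixed by the filter, which leaves 3 higher of the other 9. The median log2 fold change of the 10 was 0.01 (-0.08 within number 1 and 0.08 within number 2) and that of all genes 0.00; without Eda2r it was 0.00 over 9 genes. The members thus lay on both sides of 0 between the size extremes. The Large pair stood above the Small pair without overlap for 3 of the 10 genes, Eda2r included, and for 2849 of all 16066. It stood below without overlap for 2 of the 10 and for 2389 of all 16066.

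Between Large and Medium, 0 of the 10 and 0 of 16066 genes (0%) passed edgeR, with 301 genes at an unadjusted p under 0.05, Eda2r among them, 2 calls by DESeq2, 0 by limma-voom and 1 by limma-trend. Large was higher within both numbers for 3 genes (Trp53, Aen and Eda2r; 32.9% of all genes) and lower for 3 (Mdm2, Sesn1 and Trp53inp1; 33.3%), with a median of -0.05 (-0.12 without Eda2r, whose direction the filter fixed here too) beside -0.01 for all genes. Between Medium and Small, 0 of 10 and 0 of 16066 (0%) passed edgeR, with 695 genes and 0 of the 10 at an unadjusted p under 0.05, 47 calls by DESeq2, and 0 by limma-voom and limma-trend. Medium was higher within both numbers for Mdm2 alone (30.1% of all genes) and lower for Trp53 and Trp53inp1 (29.8%), and the other 7 had opposite signs or, for Eda2r, no reads. Here the median was -0.04, beside -0.01 for all genes.

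Against cells not separated by size, 0 of 16066 genes (0%) and 0 of the 10 passed edgeR in each gate. The unadjusted p was under 0.05 for 637 genes in Small, 262 in Medium and 504 in Large. Of the 10, these held Ccng1 in Medium and Trp53inp1 in Large. They also held Eda2r in Small and Medium, where it had no reads and the filter built in its difference. DESeq2 called 19, 6 and 8 genes, none of them among the 10. Limma-voom made 0 calls in each, and limma-trend made 1 in Large and 0 in the others. Phlda3 had higher means in each gate than in All (2.58 ± 2.03 CPM in Small, 2.74 ± 1.17 in Medium and 2.23 ± 0.18 in Large, against 1.02 ± 1.12), with 4 counts in All 2. These comparisons share the All libraries too.

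**Figure D2:**
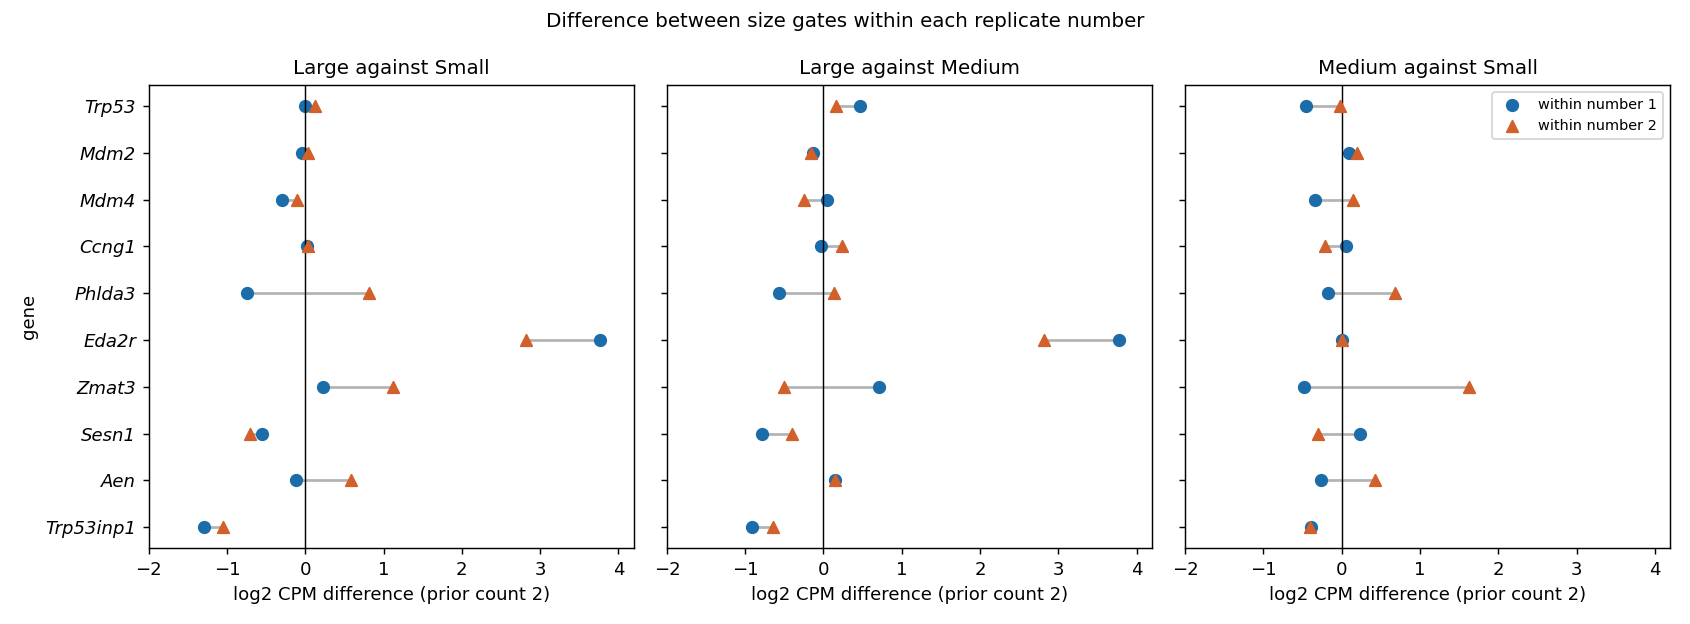
Difference in log2 CPM (prior count 2; x axis) between size gates within replicate number 1 (circles) and within number 2 (triangles) for each of the 10 genes (y axis), in 3 panels for Large against Small, Large against Medium and Medium against Small; grey lines join the pair. Trp53inp1 lies left of 0 in all 3 panels, at -1.30 and -1.05 in the first, whereas Mdm2 and Ccng1 lie within 0.04 of 0 in the first and Phlda3 lies on both sides of it.

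Other p53 targets also lay on both sides of 0 in Large against Small, with more of them lower than higher within both numbers. Of 30 targets tied to arrest, repair and metabolism, 0 passed edgeR in Large against Small, 8 were higher within both numbers and 16 lower (32.9% and 31.2% of all genes), with a median of -0.18 beside 0.00 for all genes. Cdkn1a, which encodes the cyclin-dependent kinase inhibitor p21, had 56.7 and 129 CPM in the Small pair, 58.9 and 145 in the Medium pair, 44.4 and 137 in the Large pair, and 35.9 and 118 in the All pair. As for Sesn1, all libraries numbered 2 were above all numbered 1, and the gates overlapped (Large against Small log2 -0.04, SE 0.79; adjusted p = 0.999). That pattern was found in 9 of the 30 genes, beside 11.6% of all genes. Sesn2, a relative of Sesn1, had 22.4 and 25.2 CPM in the Small pair and 9.08 and 14.8 in the Large pair (log2 -0.99, SE 0.42; adjusted p = 0.975). The kinase gene Plk3 had 86.2 and 78.0 CPM in the Small pair and 29.7 and 61.1 in the Large pair (-0.85, SE 0.38; adjusted p = 0.975). Rrm2b, the p53-inducible ribonucleotide reductase subunit, had 10.3 and 14.5 CPM in the Small pair and 8.65 and 10.1 in the Large pair (-0.41, SE 0.44; adjusted p = 0.975).

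Of 15 apoptotic targets 0 passed, 3 were higher within both numbers and 8 lower, beside 32.9% and 31.2% of all genes, with a median of -0.23 (0.00 for all genes). Bbc3, which encodes the BH3-only protein PUMA, had 8.49 and 12.2 CPM in the Small pair and 5.79 and 7.83 in the Large pair (log2 -0.60, SE 0.48; adjusted p = 0.975). Bax, a pore-forming effector of apoptosis, had 78.2 and 39.8 CPM in the Small pair and 77.1 and 59.1 in the Large pair (0.21, SE 0.33; adjusted p = 0.975). Pmaip1, the BH3-only gene for NOXA, had 81.2 and 77.8 CPM in Small, 97.5 and 105 in Large, and 43.8 and 38.3 in All, and Large was above Small by 0.35 (SE 0.22; adjusted p = 0.975). Siva1 had 93.6 and 60.2 CPM in the Small pair and 181 and 138 in the Large pair (1.05, SE 0.45; adjusted p = 0.975). The Large libraries were thus below the Small ones for Bbc3, above them for Pmaip1 and Siva1, and within their range for Bax.

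Among 26 regulators of p53, 23 were tested (Cdkn2a, which encodes the Mdm2 inhibitor ARF, and the p53 relatives Trp63 and Trp73 had too few reads), 0 passed, 4 were higher within both numbers and 11 lower, again beside 32.9% and 31.2% of all genes, with a median of -0.03 (0.00 for all genes). Usp7, a deubiquitinase of Mdm2 and p53, had 83.5 and 82.2 CPM in the Small pair and 119 and 65.1 in the Large pair (log2 0.15, SE 0.29; adjusted p = 0.975). Ppm1d, the phosphatase WIP1 that switches off p53 signalling, had 26.3 and 21.9 CPM in the Small pair and 30.5 and 21 in the Large pair (0.10, SE 0.54; adjusted p = 0.992). Hipk2, a kinase that phosphorylates p53, had 34.4 and 52.7 CPM in the Small pair and 28.4 and 27.8 in the Large pair (-0.63, SE 0.27; adjusted p = 0.975). The acetyltransferase gene Ep300 had 53 and 73.0 CPM in the Small pair and 43.2 and 47.0 in the Large pair (-0.48, SE 0.24; adjusted p = 0.975). For Hipk2 and Ep300 the Large pair stood entirely below the Small pair. This held for 5 of the 23 regulators tested and for 2389 of all 16066 genes.

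The DNA damage sensing and signalling list, upstream of p53, leaned the other way. Of its 28 tested genes (of 29), 0 passed edgeR in Large against Small, 21 were higher within both numbers and 3 lower, where 32.9% and 31.2% of all genes were. Its median was 0.51 (0.51 within number 1 and 0.69 within number 2), and against Medium it was 0.42, with 20 higher and 4 lower. The list also holds replication checkpoint genes, such as Chek1, that cells express mainly around S phase. Prkdc, the DNA-dependent protein kinase, had 14.8 and 18.7 CPM in the Small pair, 43.5 and 36.8 in the Medium pair, 41.6 and 32.8 in the Large pair, and 40.1 and 43.3 in the All pair, so the Small pair stood apart from the other 6 libraries (Large against Small log2 1.15, SE 0.26; adjusted p = 0.975). Rad50, of the break-sensing MRN complex, had 18.6 and 16.1 CPM in the Small pair, 50.7 and 27.8 in the Medium pair, 52.7 and 34.6 in the Large pair, and 43.3 and 44.5 in the All pair (1.33, SE 0.36; adjusted p = 0.975), again with Small below all others.

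For the p53 kinases Atm and Chek2 the Small and Large pairs overlapped. Atm had 14.8 and 19.4 CPM in the Small pair and 26.4 and 17.8 in the Large pair (log2 0.37, SE 0.47; adjusted p = 0.975). Chek2 had 47.1 and 35.5 CPM in the Small pair and 54.4 and 37.7 in the Large pair (0.16, SE 0.34; adjusted p = 0.975). Beside the whole list, the HSC marker sum was lower in Large than in Small within each number and of the 15 granulocyte and monocyte genes 6 were higher in Large within both numbers, whereas 9 were lower within number 1 and higher within number 2; their part in the list's values was not tested.

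**Figure D3:**
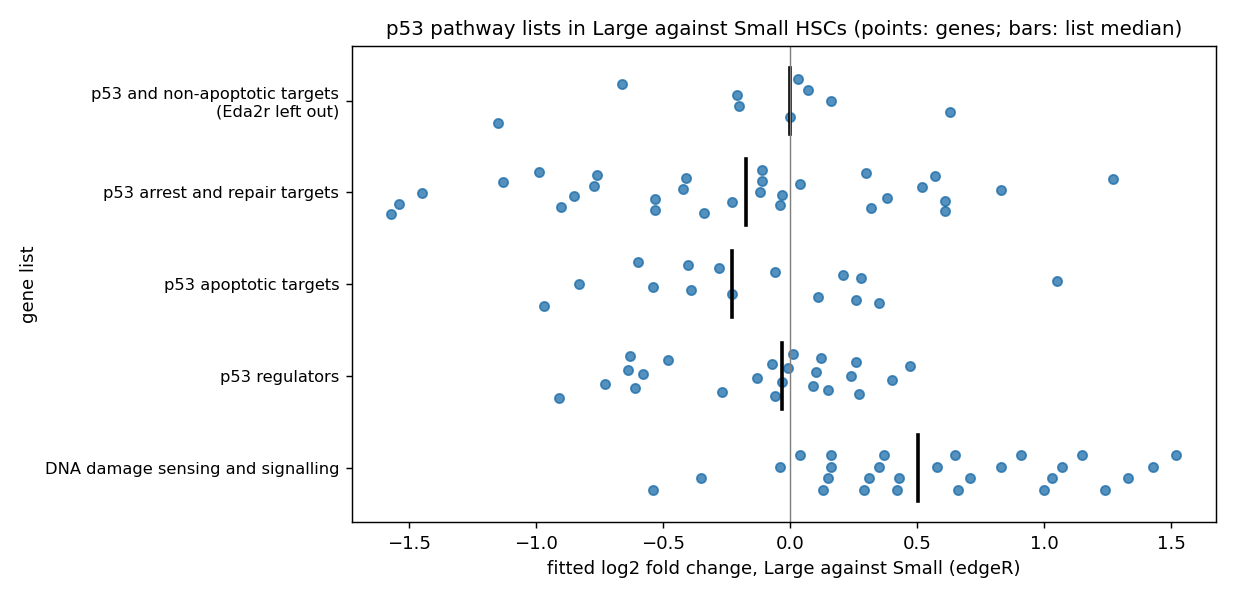
Fitted log2 fold changes of Large against Small (x axis, edgeR) for single genes (points) of 5 lists (y axis); black bars are list medians, and points are spread vertically only to separate them. Eda2r is left out of the first list because it had no reads in Small. The first list has its median at 0.00, whereas the DNA damage list has its median at 0.51 and most of its points right of 0.

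Genes with the profile most like that of a member were found by the root-mean-square difference of centred log2 CPM over the 8 libraries, among 10187 named genes with a mean of at least 5 CPM. For Trp53 they were Tbcd (0.0384), Hmga1 (0.0657) and Ccdc86 (0.0795). For Mdm2 they were Arl15 (0.0744), Gna13 (0.0812) and Ngrn (0.0922), and for Ccng1 Slc26a2 (0.0715), Vamp7 (0.079) and Man1a2 (0.0862). The root-mean-square variation of Trp53, Mdm2 and Ccng1 around their own means was 0.203, 0.156 and 0.183, so these profiles are shallow, and close neighbours are easily found among so many genes.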

How the data were processed

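RNA from 8 libraries was analysed. Per the submitters' processing notes, STAR 2.5.3a, RSEM 1.3.0 and SAMtools 1.3 were used with build mm10; the annotation release and strand setting are not given in the sources used here. Estimated counts per gene, already whole numbers, and log2(TPM + 1) values are what the authors deposited. Of 50686 gene IDs, 50462 matched a symbol in GENCODE M21; 0 of the 10 genes share exon bases with another annotated gene.

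Genes were kept by filterByExpr (minimum count 10), scaled by TMM and fitted by quasi-likelihood in edgeR 4.0.16 (R 4.3.3) on all 8 libraries, with a coefficient per group and 4 residual degrees of freedom. P-values are two-sided and Benjamini-Hochberg adjusted over 16066 genes, with a threshold of 0.05. An exact test of 2 against 2 cannot go below 0.333. Within-number differences are of log2 CPM (prior count 2). The code was tested on simulated data. The simulation had the same dispersion for every gene and no effect of the replicate number, so it does not show which differences could be found here. limma 3.58.1 and DESeq2 1.42.0 were alternatives.

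The 10 genes and the lists were chosen with earlier results of these data known. Of the listed genes that are not among the 10, the text names Cdkn1a, Atm, Chek2, Ppm1d, Usp7, Bax, Bbc3 and Rrm2b, and in each list the 2 genes of at least 5 CPM with the smallest p in Large against Small; other names were added as background. HSCs from treated mice were not analysed here.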

Additional observations from a re-analysis of the deposited data

How the results depend on the processing

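In each of the 6 comparisons 0 of the 10 genes passed the threshold under every alternative run: the replicate block, DESeq2, limma-voom, limma-trend on log2(TPM + 1), RLE scaling, no filter, a stricter filter (10 CPM in 2 libraries, which drops Phlda3, Eda2r and Zmat3), a fit of only the groups compared, and leaving out each library in turn, where the lone library is assumed to vary like the others. With the replicate number as a block, the smallest adjusted p of the 10 in Large against Small was 0.0822, for Trp53inp1 (-1.17), and genes at an unadjusted p under 0.05 rose from 506 to 2791; the deviations of same-numbered libraries correlated at 0.358 to 0.439, but the labels do not say what the numbers share. Without a filter, edgeR called 55 of 28543 genes in Large against Small. The median over the 10 genes in Large against Small was -0.12 on log2(TPM + 1) and 0.05 with the block. In Large against Medium it was -0.09 with the block, 0.00 by limma-voom, -0.10 on log2(TPM + 1), -0.19 with the stricter filter, and -0.05 to 0.01 with a library left out.

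Of 351 single-gene values under alternatives, 27 had the opposite sign to a fitted value other than 0.00; the cause was not tested. In Large against Small these were Phlda3 (0.14 with the block, 0.02 by limma-voom, -0.85 to 0.96 with a library left out), Trp53 (-0.03 on log2(TPM + 1)), Ccng1 (-0.14 on log2(TPM + 1), -0.01 with the stricter filter), Sesn1 (-1.51 to 0.30 with a library left out) and Aen (-0.24 to 0.71). In Large against Medium they were Zmat3 (-0.07 with the block, -0.13 on log2(TPM + 1), -0.44 to 0.65 with a library left out), Ccng1 (-0.02 on log2(TPM + 1), -0.04 to 0.21), Phlda3 (-0.71 to 0.22), Mdm4 (-0.28 to 0.03), Sesn1 (-1.37 to 0.03) and Aen (-0.01 to 0.29). In Medium against Small they were Phlda3 (-0.19 on log2(TPM + 1), -0.55 to 1.25), Sesn1 (-0.72 to 0.82), Mdm4 (-0.26 to 0.08), Ccng1 (-0.18 to 0.04) and Zmat3 (-0.03 to 1.32). Mdm2 in Large against Small and Aen in Medium against Small were fitted at 0.00 and have no sign to lose; with a library left out they ran from -0.03 to 0.02 and from -0.40 to 0.56. Trp53inp1 kept its sign in these 3 comparisons under each alternative run. Depth limits Phlda3, Zmat3 and Eda2r, with at most 62 counts in a library.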
